A study of Rattus norvegicus with 4 samples.

Results

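The genes considered here are 40 transcripts of brain vessels and of the blood-brain barrier, measured in the hippocampus of aged rats with and without chronic mild stress. They were picked by gene symbol, in a choice made with earlier results of these data known. The list comprises 16 endothelial genes, 11 genes of junctions and transporters of the barrier, 10 genes of mural cells (pericytes and smooth muscle) and 3 genes of oxygen sensing and VEGF signalling. Of the 40, 38 had at least 1 probe set that the platform annotation assigns to that gene alone, 55 probe sets in all. A total of 28 genes, with 31 probe sets, reached a signal of 100 on 2 or more of the 4 arrays, the minimum for testing, out of 9264 tested genes and 14217 annotated genes in the series. Pdgfb, the endothelial ligand that recruits mural cells, and Ednra, an endothelin receptor of smooth muscle, had no such probe set and were not analysed here.

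Brain endothelial cells are joined by continuous tight junctions built from claudins and occludin, and carry transporters that let glucose and selected organic anions pass while efflux pumps return lipophilic compounds to the blood. Pericytes and smooth muscle cells wrap these vessels, and signals between the cell types, among them VEGF, the angiopoietins, PDGF-B and endothelin, set vessel growth and tone. VEGF is made mainly outside the endothelium and is a classical target of the oxygen-regulated factors HIF-1alpha and HIF-2alpha.

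The animals were male Wistar rats without any genetic modification. One group went through a battery of changing mild stressors for 4 weeks and was 16 months old at dissection. Controls, also 16 months old, were in standard housing and did not go through the battery. Each group gave 2 arrays, each of total hippocampal RNA pooled from 3 rats, so differences between single animals are averaged within a pool and the spread between arrays may be partly or wholly technical. The design addresses the effect of stress on hippocampal transcripts in old age. Median signals were 79.6 to 82.3 on the 4 arrays. The 12 neuronal genes taken as hippocampal markers all passed the minimum for testing, with summed signals of 17611 to 18153. Of these markers Camk2a and Dsp rose by 0.18 and 0.91 on the log2 scale, Rbfox3 fell by 0.20 and Neurod2 fell by 0.79, and 8, among them Neurod6 (-0.10) and Slc17a7 (0.12), were not called at an adjusted p under 0.05 (limma). Dsp and Neurod2 were named after their values were seen. Dsp had passed the minimum through the stressed arrays alone, with 75.1 and 81.3 on the control arrays.

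In stressed rats 12 of the 28 tested vessel and barrier genes rose and none fell, by limma at p under 0.05 after Benjamini-Hochberg adjustment across every probe set tested, each gene being read at its brightest probe set. Among all 9264 tested genes 11.1% rose and 10.2% fell at the same threshold. Because the genes were chosen with earlier results of these data known, their count beside these shares is a description only. The risers were Flt1, Vwf and Eng of the endothelial genes, Slc2a1, Slco1a4, Slco1c1, Abcg2, Ocln and Tjp1 of the barrier genes, Pdgfrb of the mural genes, and Epas1 and Vegfa. Changes are given below on the log2 scale with their standard error, as difference ± error, or with a 95% interval. The rises were small, from 1.16-fold for Slco1c1 to 1.83-fold for Flt1. No gene passed 2-fold at an unadjusted p under 0.05, against 0.799% of all tested genes. At unadjusted p under 0.05 alone, 15 of the 28 genes were higher and 0 lower. The methods' t-test, which takes the spread from the 4 arrays of each gene, called none of them at adjusted p in either direction. It called only 0.0324% of all tested genes higher there. At unadjusted p under 0.05 that t-test had 11 of the 28 higher. The share of all genes at unadjusted p alone was not taken, so neither unadjusted count can be set against it. Both stressed arrays lay above both control arrays for 18 of the 28 genes and below them for 3, against 33.5% and 29.2% of all tested genes. In whole tissue, more cells of a type and more RNA per cell cannot be told apart.

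The median log2 fold change was 0.27 over the 28 genes and 0.02 over all tested genes. Relative to the mean of the control arrays, the median gene of the 28 stood at 0.25 and 0.26 on the stressed arrays and at 0.01 and -0.01 on the control arrays, on the log2 scale. The control values mirror each other by construction, since each gene was set against the mean of these same arrays. The median was alike on both stressed arrays, at 0.25 and 0.26 above the control mean. Kdr and Pdgfrb had passed the minimum through the stressed arrays alone, and without these 2 genes 11 of 26 rose. When every probe set was tested without a minimum, 8 of 38 genes rose and none fell, against 4.73% of all genes. Leaving out stressed replicate 1 or 2 gave 9 and 7 risers, and leaving out control replicate 1 or 2 gave 6 and 5, where 6.93%, 7.15%, 5% and 4.03% of all genes rose. In each of these settings 1 array is left in a group and is assumed to vary like the rest. Slc2a1, Slco1a4 and Epas1 kept their calls in all 4 removals.

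**Figure D1:**
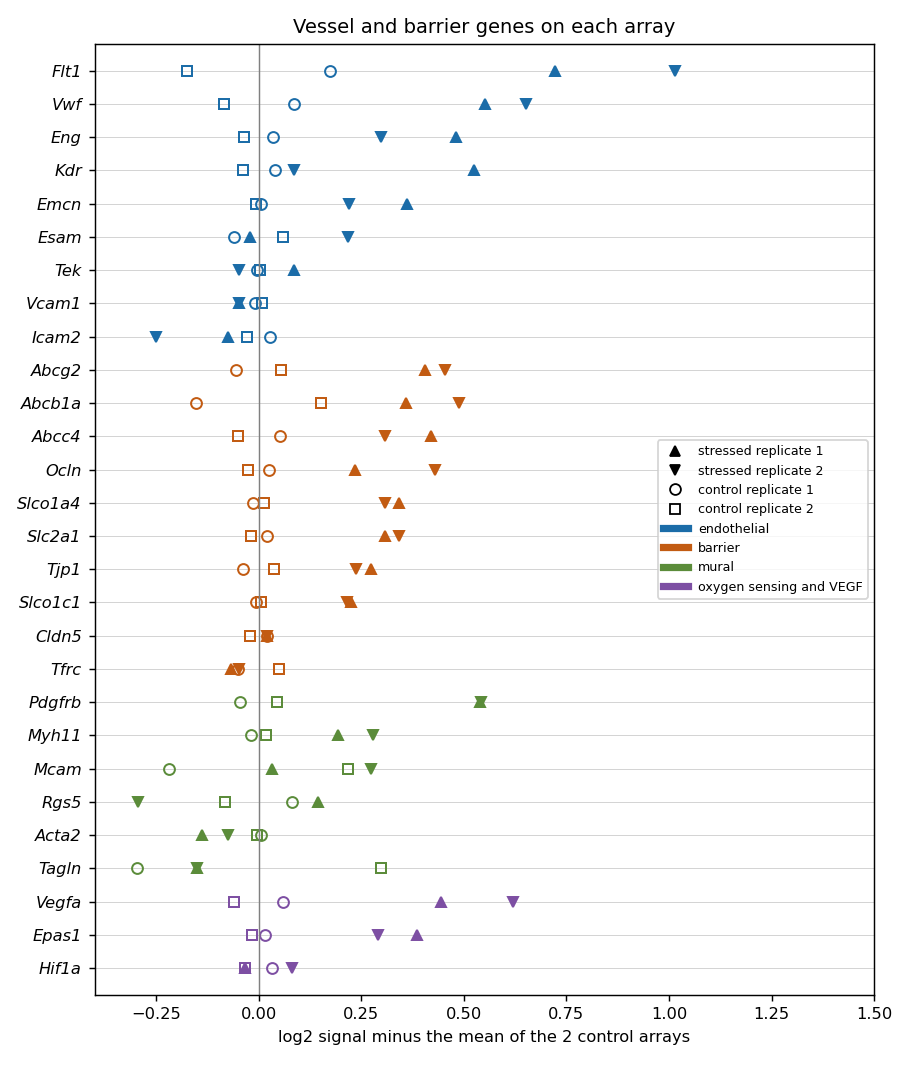
Each row is 1 of the 28 tested genes at its brightest probe set, and each point is 1 array, as log2 signal minus the mean of the 2 control arrays of that gene (filled triangles, stressed replicates; open circle and square, control replicates; colours, gene class). The triangles of Abcg2, Slco1a4, Slc2a1, Tjp1 and Slco1c1 lie to the right of their controls, whereas those of Cldn5, Tfrc and Hif1a lie among or close to them.

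Among the barrier transporters the solute carriers and 1 efflux pump rose. Of the 7 transporter genes, all of them tested, 4 rose, 0 fell and 3 did not pass the test. Slc2a1 encodes GLUT1, the glucose carrier of the barrier. Its signals were 1031.8 and 1055.3 in stressed rats and 844.4 and 822.3 in controls, which is 0.32 ± 0.05 on the log2 scale (limma, adjusted p = 0.00458). The groups were well separated, since the arrays within a group differed far less than the groups did.

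Slco1a4, an organic anion carrier of the barrier, had 2 tested probe sets. The brighter gave 1423.4 and 1390.4 in stressed rats and 1112.8 and 1132.8 in controls, which is 0.33 ± 0.05 on the log2 scale (limma, adjusted p = 0.00329). The dimmer gave 217.7 and 187.0 against 158.8 and 171.7, and at 0.29 (adjusted p = 0.134) did not pass, although its groups did not overlap. Its relative Slco1c1 carries thyroxine into the brain. Slco1c1 had signals of 803.9 and 797.5 against 684.9 and 690.2, the smallest of the called rises at 0.22 (adjusted p = 0.0246 from limma). It did not pass in any removal of an array (adjusted p 0.0711 to 0.0994), nor without an intensity trend or without the minimum, and was kept under 8 of 17 alternatives.

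ATP-driven efflux pumps were measured with Abcg2, Abcb1a and Abcc4. Abcg2 encodes the breast cancer resistance protein. Its signals were 323.9 and 335.0 in stressed rats and 235.5 and 253.9 in controls, which is 0.43 ± 0.09 on the log2 scale (limma, adjusted p = 0.0137). The call was lost without stressed replicate 2 (adjusted p = 0.0553) or control replicate 1 (0.0762). Abcb1a encodes P-glycoprotein, the main drug pump of brain capillaries, and 2 probe sets carried its name alone. The brighter read 138.7 and 151.7 against 97.3 and 120.2, with a log2 fold change of 0.42 (95% interval 0.06 to 0.78, adjusted p = 0.0861). The other read 172.1 and 122.3 against 109.5 and 71.0, with 0.72 (adjusted p = 0.0689). Neither passed, both had stressed arrays above control arrays, and the close similarity of Abcb1a to Abcb1b leaves their assignment uncertain. With the mean of all tested probe sets of a gene, Abcb1a was called as well, which made 13 risers. Abcc4, a pump for organic anions, had 133.1 and 123.2 against 103.1 and 96.0 and did not pass (0.36, 95% interval 0.03 to 0.69, adjusted p = 0.102).

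Tfrc, the transferrin receptor that takes iron into brain endothelium, was not called. Its bright probe set read 1070.2 and 1084.5 in stressed rats and 1082.3 and 1160.3 in controls. The log2 fold change of -0.06 had a 95% interval from -0.18 to 0.07, and the groups overlapped at this and at the dimmer probe set (0.07). The upper end of that interval lies below the values of Slc2a1, Slco1a4 and Abcg2, although a difference between the genes was not tested.

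**Figure D2:**
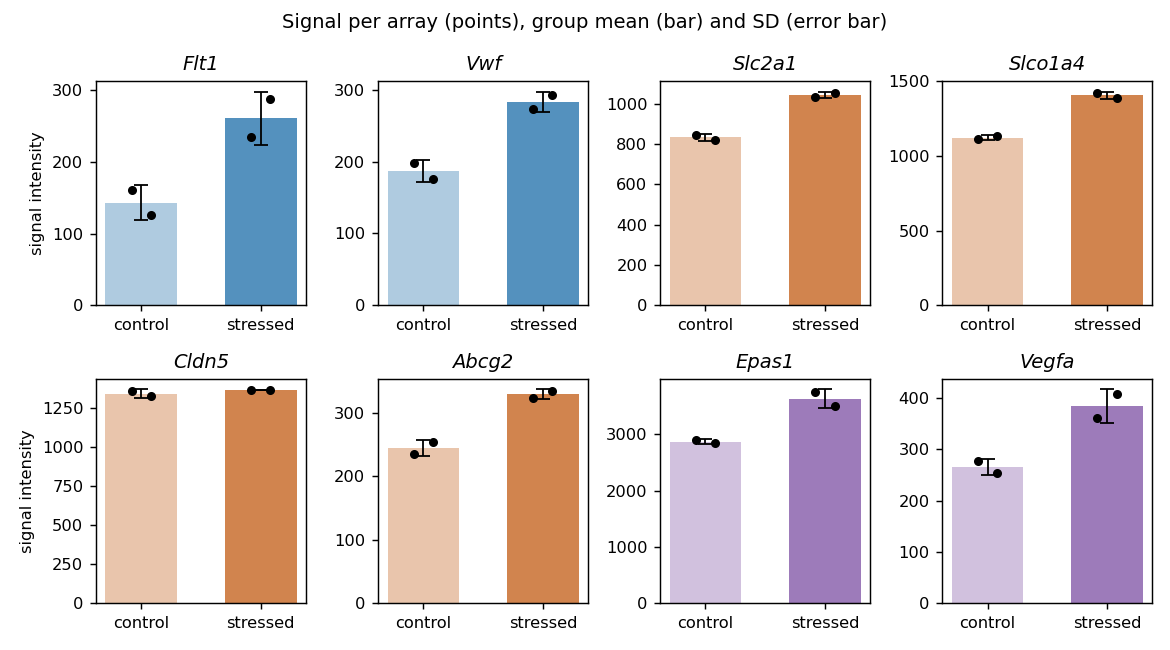
Bars give the mean signal of the 2 arrays of a group, error bars the SD, and points the single arrays, for 8 genes on linear axes that start at 0. The stressed bar is higher than the control bar by a margin wider than the points for Flt1, Vwf, Slc2a1, Slco1a4, Abcg2, Epas1 and Vegfa, and the Cldn5 bars stand at 1364 against 1344.

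Of the 3 tested tight junction genes 2 rose and 1 was not called. Ocln encodes occludin, a membrane strand protein. It read 325.1 and 372.4 in stressed rats and 281.1 and 271.5 in controls at its brighter probe set, which is 0.33 ± 0.10 on the log2 scale (limma, adjusted p = 0.0429), with the call lost without stressed replicate 2 (adjusted p = 0.199) or either control replicate (0.117 and 0.170). It was also lost without an intensity trend (adjusted p = 0.0710) and without the minimum (0.0729), and was kept under 9 of 17 alternatives. The dimmer, untested probe set of Ocln read 42.6 and 55.7 against 57.5 and 36.0, with overlapping groups. Tjp1 encodes ZO-1, the scaffold that ties the strands to actin. Its dimmer, untested probe set read 19.3 and 12.7 against 11.4 and 23.2, with overlapping groups. The brighter read 1901.9 and 1855.1 against 1532.0 and 1614.8, which is 0.26 ± 0.05 on the log2 scale (limma, adjusted p = 0.00916). This call was lost without control replicate 1 (adjusted p = 0.0649) and without an intensity trend.

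Cldn5 encodes claudin-5, the dominant claudin of brain endothelium. Its signals were 1364.0 and 1363.8 in stressed rats and 1363.0 and 1325.7 in controls. The log2 fold change of 0.02 had a 95% interval from -0.09 to 0.13 (adjusted p = 0.779). The interval lies below the log2 fold changes of Ocln and Tjp1. It overlaps the 95% interval of Ocln, 0.11 to 0.56, but not that of Tjp1, 0.14 to 0.37. The difference between these junction genes was not tested. Cldn1 had 3 probe sets, the brightest with 47.4 and 62.7 against 47.8 and 52.8, and none was tested.

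Of the 9 tested endothelial genes 3 rose and none fell, with a median log2 fold change of 0.29. Flt1 encodes VEGF receptor 1, which binds VEGF tightly and signals weakly. Its only tested probe set read 234.6 and 287.0 in stressed rats and 160.4 and 126.0 in controls, which is 0.87 ± 0.16 on the log2 scale (limma, adjusted p = 0.00728). It was the largest change of the 28 genes. The call was lost without control replicate 2, where the log2 fold change was 0.69. The 2 other probe sets of Flt1 had signals of 12.3 to 41.6, with overlapping groups, and were not tested.

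Vwf encodes von Willebrand factor, which endothelial cells store and release in haemostasis. It read 273.6 and 293.4 against 198.1 and 176.1, which is 0.60 ± 0.11 on the log2 scale (limma, adjusted p = 0.00738). As for Flt1, the call was lost without control replicate 2 (adjusted p = 0.0542). Eng, the TGF-beta co-receptor endoglin, read 229.3 and 202.0 against 168.4 and 160.3. Its log2 fold change of 0.39 (standard error 0.12) lay just inside the threshold (adjusted p = 0.0485 from limma) and did not pass in any removal of an array. It did not pass under quantile normalization (adjusted p = 0.0528), without an intensity trend (0.0503) or without the minimum (0.0801), and was kept under 6 of 17 alternatives.

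The main signalling receptor for VEGF and the angiopoietin receptor did not pass the test. Kdr (VEGF receptor 2) read 139.8 and 103.1 in stressed rats and 99.8 and 94.5 in controls, so that the stressed arrays differed widely from each other (0.31, 95% interval -0.11 to 0.72). Tek, the angiopoietin receptor Tie2, read 398.8 and 363.2 against 374.5 and 376.6, and its groups overlapped (0.02, 95% interval -0.17 to 0.21). Emcn, a sialomucin of capillary and venous endothelium, read 195.8 and 177.6 against 153.1 and 151.9. Its groups were separate but the change of 0.29 did not pass (adjusted p = 0.115).

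None of the 3 tested adhesion genes passed, and the 2 others, Icam1 and Pecam1, were not tested. Vcam1 and Icam2 hold leukocytes at the vessel wall, and Esam joins endothelial cells. Vcam1 read 785.6 and 785.7 in stressed rats and 807.6 and 817.5 in controls (-0.05, 95% interval -0.17 to 0.08). Icam2 read 121.3 and 107.5 against 130.4 and 125.3 (-0.16, 95% interval -0.49 to 0.16), and Esam 207.1 and 244.2 against 201.6 and 218.8 (0.10, 95% interval -0.18 to 0.38). Stressed arrays were thus below the controls for Vcam1 and Icam2, by less than the test could call, and overlapped them for Esam.

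The other 6 endothelial genes with probe sets stayed under the minimum. Tie1, an orphan relative of Tie2, came nearest with 94.2 and 130.7 in stressed rats and 89.9 and 92.5 in controls. Icam1 read 74.5 and 120.0 against 97.0 and 72.3, and Pecam1, the adhesion molecule CD31, 85.6 and 94.1 against 75.4 and 74.0. The genes just inside the minimum were Kdr, Pdgfrb and Mcam. Nos3, Edn1 and Angpt2, which encode endothelial nitric oxide synthase, endothelin-1 and angiopoietin-2, had signals from 18.8 to 56.3.

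**Figure D3:**
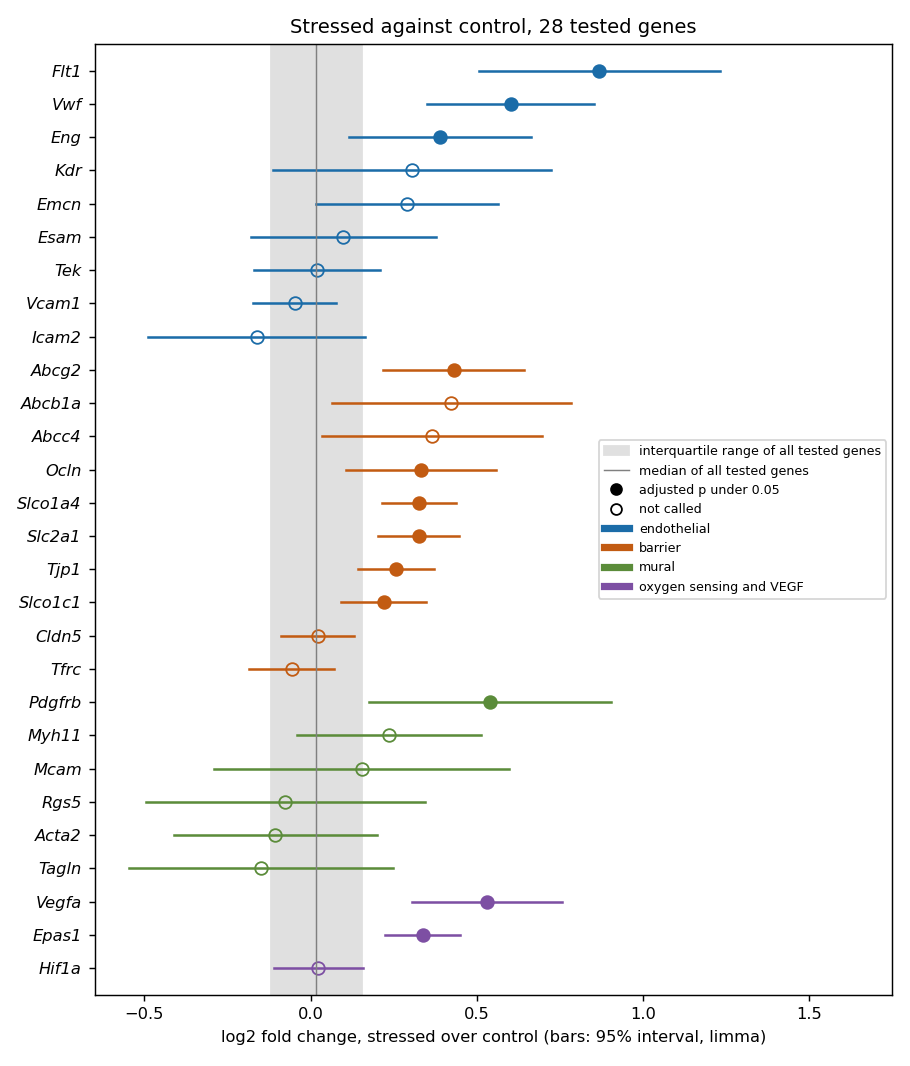
Points give the log2 fold change of each tested gene, stressed over control, and bars its 95% interval from limma, with filled points at adjusted p under 0.05. The grey band is the interquartile range of all tested genes, from -0.12 to 0.15, and 12 filled points, all with positive values, lie beyond it.

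Mural genes were mostly not called. Among 6 that were tested 1 rose and none fell, and the median log2 fold change was 0.04. Pdgfrb, the PDGF receptor of pericytes, read 104.0 and 104.2 in stressed rats and 69.4 and 73.9 in controls, which is 0.54 ± 0.16 on the log2 scale (limma, adjusted p = 0.0424). It had been tested only because the stressed arrays reached the minimum. Its call was lost in every removal of an array (adjusted p 0.121 to 0.154), under quantile normalization, without the minimum and with a mean signal of at least 100, where it was not tested, and its other probe sets had signals of 3.0 to 31.2.

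The contractile genes of smooth muscle, all tested, gave no call. Tagln (SM22) read 309.0 and 309.2 in stressed rats and 279.1 and 421.4 in controls, so that its spread lay in the control pools (-0.15, 95% interval -0.55 to 0.25). Without control replicate 1 it was the only gene of the 28 called lower. Acta2, the smooth muscle actin, read 117.7 and 123.0 against 129.9 and 129.1 (-0.11, 95% interval -0.41 to 0.20). Several further probe sets named for Acta2 together with Actc1 were not used. Myh11, the smooth muscle myosin heavy chain, read 165.7 and 176.0 against 143.2 and 146.9 (0.24, 95% interval -0.04 to 0.51). The values had both signs among these genes, none of which passed.

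Rgs5, a G protein regulator abundant in pericytes, read 128.3 and 94.7 in stressed rats and 122.9 and 109.8 in controls (-0.08, 95% interval -0.50 to 0.34). Mcam (CD146) read 99.8 and 117.9 against 83.8 and 113.5 (0.15, 95% interval -0.29 to 0.60). Both had overlapping groups and wide intervals. Anpep (aminopeptidase N), Notch3 and Angpt1, the Tie2 ligand of mural cells, were dim, with signals from 5.8 to 65.4, and were not tested. Whether endothelial, barrier and mural genes differed from one another in their shift was not tested.

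Of the oxygen-regulated factors Epas1 rose and Hif1a was not called, and a difference between them was not tested. Epas1 encodes HIF-2alpha, which is abundant in endothelium and astrocytes. It was the brightest of the 28 genes, with signals of 3753.1 and 3515.3 in stressed rats and 2905.8 and 2842.8 in controls, which is 0.34 ± 0.05 on the log2 scale (limma, adjusted p = 0.00297). A second, untested probe set read 66.8 and 74.6 against 46.4 and 48.0. Hif1a encodes HIF-1alpha, which is controlled mainly through protein stability. It read 1204.9 and 1303.8 against 1262.2 and 1205.4, with overlapping groups and a log2 fold change of 0.02 (95% interval -0.11 to 0.16).

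Vegfa, the VEGF ligand itself, rose with its receptor Flt1. Its bright probe set read 361.3 and 407.7 in stressed rats and 276.6 and 254.8 in controls, which is 0.53 ± 0.10 on the log2 scale (limma, adjusted p = 0.00768). A dim, untested probe set read 40.2 and 48.6 against 28.4 and 37.9, with the stressed arrays also above the controls. The call of the bright probe set was lost without control replicate 2 (adjusted p = 0.0604).

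The promoters of some of these genes are shown because hypoxia-inducible factors bind a short core, ACGTG or GCGTG, and their own transcripts are among the genes measured. Windows of 250 bases before the annotated start, from RefSeq on the assembly GRCr8, were found for 26 of the 38 genes, and all matches were counted within these 250 bases. Slc2a1 and Slco1a4 rose and hold ACGTG, and Tfrc holds it as well and did not pass the test. Sequences run 5′ to 3′ on the strand of the gene, with every ACGTG or GCGTG, or its reverse complement CACGT or CACGC, in capitals.
Slc2a1, chr5:138002272-138002521, plus strand: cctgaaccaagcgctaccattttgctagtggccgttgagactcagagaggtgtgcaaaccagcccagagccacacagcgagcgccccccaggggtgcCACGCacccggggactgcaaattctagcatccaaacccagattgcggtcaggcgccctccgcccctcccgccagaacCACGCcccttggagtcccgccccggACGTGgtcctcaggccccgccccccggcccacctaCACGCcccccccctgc
Slco1a4, chr4:176495847-176496096, minus strand: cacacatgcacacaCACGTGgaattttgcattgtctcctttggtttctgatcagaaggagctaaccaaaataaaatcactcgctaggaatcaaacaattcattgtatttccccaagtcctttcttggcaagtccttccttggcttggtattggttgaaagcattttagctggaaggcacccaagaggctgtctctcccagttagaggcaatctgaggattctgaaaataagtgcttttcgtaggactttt
Tfrc, chr11:81690319-81690568, minus strand: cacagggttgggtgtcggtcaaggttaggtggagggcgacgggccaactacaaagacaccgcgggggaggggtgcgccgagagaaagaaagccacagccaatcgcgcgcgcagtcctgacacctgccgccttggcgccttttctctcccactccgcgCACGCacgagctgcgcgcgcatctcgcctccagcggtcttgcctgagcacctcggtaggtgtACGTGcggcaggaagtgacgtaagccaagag

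The Slc2a1 window had 1 match of ACGTG and 3 of GCGTG, that of Tfrc 1 of each, and the capitals of Slco1a4 are 1 palindrome that matches ACGTG on both strands. ACGTG occurred in the windows of 2 of the 9 risers and of 3 of the 10 genes not called, and in 16.6% of all 33469 windows. Either core occurred for 4 of the 9 and 5 of the 10, and in 36.7% of all windows. The 4 risers were Slc2a1, Slco1a4, Ocln and Flt1, while the windows of Vegfa, Epas1, Tjp1, Eng and Abcg2 held neither core. All counts are of matches of letters in a window, and binding was not measured.

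Other genes of the same vessel functions, from lists that leave out the 40, moved in both directions. Of 22 tested endothelial genes 5 rose and 2 fell, with a median log2 fold change of 0.11. Cav1, the coat protein of caveolae, rose by 0.31, and Ptprb, a phosphatase that acts on Tie2, by 0.57. Ace, which converts angiotensin I on the endothelial surface, rose by 0.47, while Egfl7, a secreted endothelial protein, fell by 0.76. Egfl7 had passed the minimum through the control arrays alone. Tfpi, named to complete the falls, read 552.1 and 471.2 in stressed rats and 651.9 and 646.0 in controls, a fall of 0.35. Of 22 tested barrier genes 3 rose and 1 fell. The receptor gene Lrp1 rose by 0.62, the cationic amino acid carrier gene Slc7a1 by 0.60 and Ctnnb1 (beta-catenin) by 0.18, and Adgra2, a co-receptor for Wnt7 signals in brain endothelium, fell by 0.84.

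Of 13 other mural genes 1 rose and 2 fell. Cspg4 (NG2, a pericyte and oligodendrocyte precursor marker) rose by 0.60, from 73.7 and 90.4 to 121.7 and 125.0. It had passed the minimum through the stressed arrays alone. Vtn (vitronectin) fell by 0.44 and Myl9, a smooth muscle myosin light chain, by 0.28. Of 14 other oxygen-regulated genes 2 rose and 2 fell. P4ha1 and Ndrg1 rose by 0.24 and 0.20, while Ldha (lactate dehydrogenase A) and Ddit4 fell by 0.29 and 0.22. The shares that rose in these 4 lists were 22.7%, 13.6%, 7.69% and 14.3%, beside 11.1% of all tested genes.

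Markers of neighbouring tissues moved with the groups. Of 17 tested choroid plexus markers 13 rose and none fell, with a summed signal of 26450 and 25205 on the stressed arrays and 19320 and 21461 on the control arrays. No probe set of these markers was listed at 0. Of the risers Cldn2, Aqp1 and Kcne2, named for this reason, had passed the minimum through the stressed arrays alone. The brightest were Ttr (0.27, not called) and Enpp2, Slc12a2 and Igf2, which rose by 0.34, 0.22 and 0.35. Choroid plexus epithelium is also known to express several of the barrier genes above, among them Slc2a1, Slco1a4, Slco1c1, Abcc4, Ocln and Tjp1. Of 16 meningeal markers 11 fell and 1 rose, with a summed signal of 10352 and 10689 against 13374 and 13630, again with none listed at 0. Ptgds, Mgp and Dcn fell by 0.44, 0.25 and 0.70, and Igfbp2 rose by 0.41. Col1a1 and Col3a1, which also fell and are named for this reason, had passed the minimum through the control arrays alone. The part of these tissues in the vessel results was not tested.

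Astrocytes, whose endfeet cover the vessels, gave 2 risers and no fall among 10 tested markers, where 11.1% of all tested genes rose. Their summed signal was 41219 and 40574 on the stressed arrays and 36226 and 37027 on the controls. The brightest were Gja1, Gfap and Aqp4, not called at 0.13, 0.14 and 0.13, and Slc1a3, which rose by 0.37. The rest are named to complete the list. Dag1 rose by 0.34, and Agt (0.09) and Gjb6 (0.02) were not called. Slc1a2 (-0.40), Aldh1l1 (-0.11) and Dtna (-0.09) had negative values and were not called. Of 2 tested markers of perivascular macrophages Cd74 fell by 0.54 and RT1-Da was not called (-0.17), with summed signals of 349 and 361 against 456 and 507. Of 4 tested blood markers the haemoglobin gene Hbb (-0.06) and the platelet gene Pf4 (0.09) were not called. S100a8 and S100a9, calcium-binding proteins of neutrophils, rose by 1.06 and 0.75 from control signals of 49.6 to 116.6. S100a8 had passed the minimum through the stressed arrays alone. The blood markers summed to 3230 and 3212 on the stressed arrays and 3205 and 3201 on the controls. No astrocyte, macrophage or blood probe set was listed at 0, and their part in the vessel results was not tested.

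**Figure D4:**
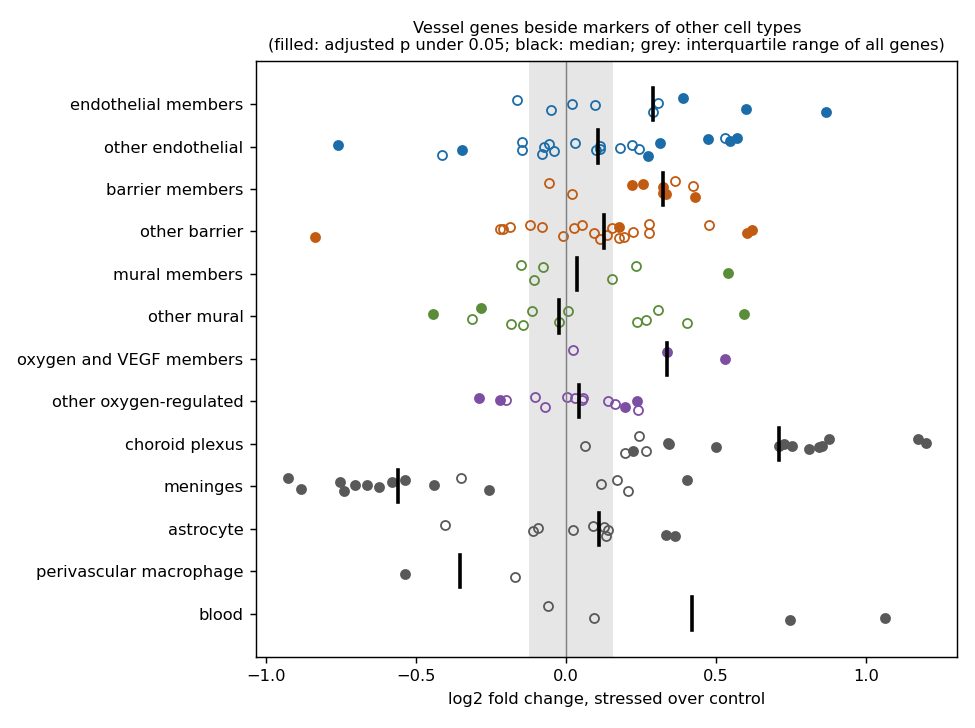
Each point is 1 gene at its brightest tested probe set, as log2 fold change of stressed over control, in rows by gene list (filled, adjusted p under 0.05 from limma; black bar, list median; grey band, interquartile range of all tested genes). The medians are 0.29, 0.32 and 0.04 for the endothelial, barrier and mural genes described above, 0.71 for choroid plexus and -0.56 for meningeal markers.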

How the data were processed

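Total hippocampal RNA of 3 rats was pooled for each of 4 rat genome arrays, 2 per group. The authors made the deposited signal intensities with GCOS at a target value of 300, on a linear scale, and no further normalization between arrays was stated or added. Detection calls were not used here. Zeros were raised to 0.1 before taking log2, and 57 control probe sets were left out. Of 31042 others, 14791 that reached 100 on 2 or more arrays were compared in R 4.3.3 by limma 3.58.1 with Benjamini-Hochberg adjustment. The variance prior followed intensity and had 5.73 degrees of freedom, and the moderated test had 7.73 in total. Dim genes are left out by the minimum, and the number of arrays limits the precision. A gene was counted at its brightest tested probe set. Genes were named from the platform annotation (20826 probe sets with 1 symbol, 436 with several, 9780 with none), 20758 of them matched to RefSeq.

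The members and lists were chosen with earlier results of these data known. Of each list of other vessel genes, up to 4 called genes with the smallest p are named, and of each list of other cell types the 4 brightest; the promoters were picked after their values were seen. Alternatives were other normalizations, minima, offsets and floors, no trend, the methods' t-test, a replicate block, each array left out, a lower fold and the mean of all probe sets. Tables were handled in pandas 2.3.3 and numpy 2.4.6 under Python 3.11.15, and plots drawn with matplotlib 3.10.9.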

Additional observations from a re-analysis of the deposited data

How the results depend on the processing

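Of the 28 tested vessel and barrier genes 12 rose under median centring, an offset of 50 and a floor of 50. The shares of all tested genes that rose were 11%, 11.2% and 11.1%. When the tested probe sets of a gene were averaged 13 rose, beside 9.76% of all genes. With a mean signal of at least 100 the count was 11, beside 11%. Quantile normalization gave 10, beside 11.6%, and a fit without an intensity trend gave 9, beside 5.79%. At a signal of at least 200 on 2 arrays 11 of 18 rose, beside 13.3% of all genes. With no minimum 8 of 38 rose, beside 4.73% of all genes. They were Flt1, Vwf, Slc2a1, Slco1a4, Abcg2, Tjp1, Epas1 and Vegfa. The methods' t-test called 0 on log2 and 0 on linear signals, where it called 3 of all genes higher. With 1 array left out, 5 to 9 rose and 0 to 1 fell, the fall being that of Tagln, and 0 to 1 passed 2-fold. At 1.5-fold and unadjusted p under 0.05 the genes were 2, Flt1 and Vwf, and the share of all genes at that fold was not taken. No call of a rise reversed its direction in any of these settings, but most of them could not have reversed one. Every riser had both stressed arrays above both control arrays, so leaving out an array, an offset or a floor keeps the sign. The trend, the minimum and the block left the fold changes as they were. Replicate numbers are shared by the groups, but no label ties them to a batch. Deviations of same-numbered arrays correlated at -0.11. With the replicate block 8 rose, beside 7.85% of all genes, and the calls of Eng, Ocln, Pdgfrb and Slco1c1 were lost. With the crossed pairing, added after seeing the data, 10 rose, beside 13.1% of all genes. The cause of the lost calls was not tested.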
